A study of Mus musculus with 6 samples.

Results

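Activated type B cells and type C cells are the dividing progenitors of the subventricular zone (SVZ), the stem cell niche along the lateral ventricles of the adult brain. They were taken as all neural stem and progenitor cells (NSPCs) that the deposited cell table places in the subcluster of activated B cells or of C cells, in every condition. This gave 92 cells, 45 activated type B and 47 type C cells, of 222 NSPCs (41.4%) and of 658 sequenced cells. The other NSPCs were 50 quiescent type B cells and 80 neuroblasts, and 416 of the other cells were microglia.

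The cells came from adult Nestin-CreERT2:R26-yfp mice, in which the Nestin promoter drives a tamoxifen-dependent Cre that switches on YFP in neural stem cells and their descendants. The study describes the mice as treated with tamoxifen before PT, and does not state the treatment of the uninjured mice separately, although their YFP+ cells were sorted in the same way. The 3 groups were uninjured mice and mice 1 day (PT D1) or 7 days (PT D7) after photothrombotic ischemia (PT), a cortical stroke made with Rose Bengal and light. YFP+ cells of the dissected SVZ on the side of the stroke were sorted into wells and sequenced by mCEL-Seq2, which counts 3′ ends of transcripts by unique molecular identifiers (UMIs), in 2 libraries per group. The sort therefore holds only recombined cells, how many mice stand behind a library is not given in the sources used here, and library or plate and condition cannot be told apart.

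Type B cells are the astrocyte-like stem cells of the niche, most of them quiescent. On activation they begin to make the receptor for epidermal growth factor (EGF), enter the cell cycle and give rise to type C cells, which divide rapidly and produce the neuroblasts that migrate to the olfactory bulb. Notch signals between neighbouring cells hold stem cells back, while proneural factors and then Dlx factors carry them toward inhibitory neurons.

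The uninjured libraries held 7 and 16 of these cells, the PT D1 libraries 11 and 23, and the PT D7 libraries 6 and 29. The mix of both subclusters differed between libraries. Activated type B and type C cells numbered 4 and 3 in uninjured library 1, 4 and 12 in uninjured library 2, 6 and 5 in PT D1 library 1, and 19 and 4 in PT D1 library 2. PT D7 library 1 had 0 activated type B and 6 type C cells, and PT D7 library 2 had 12 and 17. Together the cells held 68553 and 178891 UMIs in the uninjured, 101607 and 195496 in the PT D1, and 37600 and 229515 in the PT D7 libraries, with a median of 8535 UMIs and 3050.5 genes per cell. Every level below is given in CPM, the UMIs of a gene per 1000000 UMIs of the cells named. Because the subclusters were drawn from these same genes, levels set between subclusters are a description and carry no test.

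Genes of microglia, sorted from the same tissue, had UMIs in most of these cells. Of the 14 microglial markers, summed to 1210 CPM in these cells against 1930 in quiescent type B cells and 1320 CPM in neuroblasts, the complement gene C1qb was the most abundant at 605 CPM, and none was at 0. The count of cells with UMIs of at least 3 of these markers was 75 of 92. Well positions were shared between libraries, as 26 of the 54 well numbers of these cells occur in more than 1 library, and 0 pairs of cells had identical profiles.

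The 5 marker genes for these cells did not mark both subclusters alike. Egfr, the EGF receptor (GRCm39 chr11:16702198-16868158), had 394 CPM in activated type B cells and 55.6 CPM in type C cells, against 110 CPM in quiescent type B cells and 15.2 CPM in neuroblasts. Thrsp, a nuclear protein of lipid synthesis (chr7:97062139-97066937), had 442 and 17.7 CPM in activated type B and type C cells, and Gas1, a surface co-receptor for Hedgehog ligands (chr13:60322219-60325179), had 545 and 32.9 CPM. By these 3 genes type C cells lay below quiescent type B cells, where Thrsp had 99.6 CPM and Gas1 113 CPM. The proliferation antigen Mki67 (chr7:135291513-135318299) was high in both, at 524 and 731 CPM, against 39.8 CPM in quiescent type B cells and 200 CPM in neuroblasts. Ccnd2, cyclin D2 of the G1 to S transition (chr6:127102125-127129156), had 3070 and 5670 CPM, with 551 CPM in quiescent type B cells and 3920 CPM in neuroblasts. The positions are those of GENCODE genes of the same symbol.

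**Figure D1:**
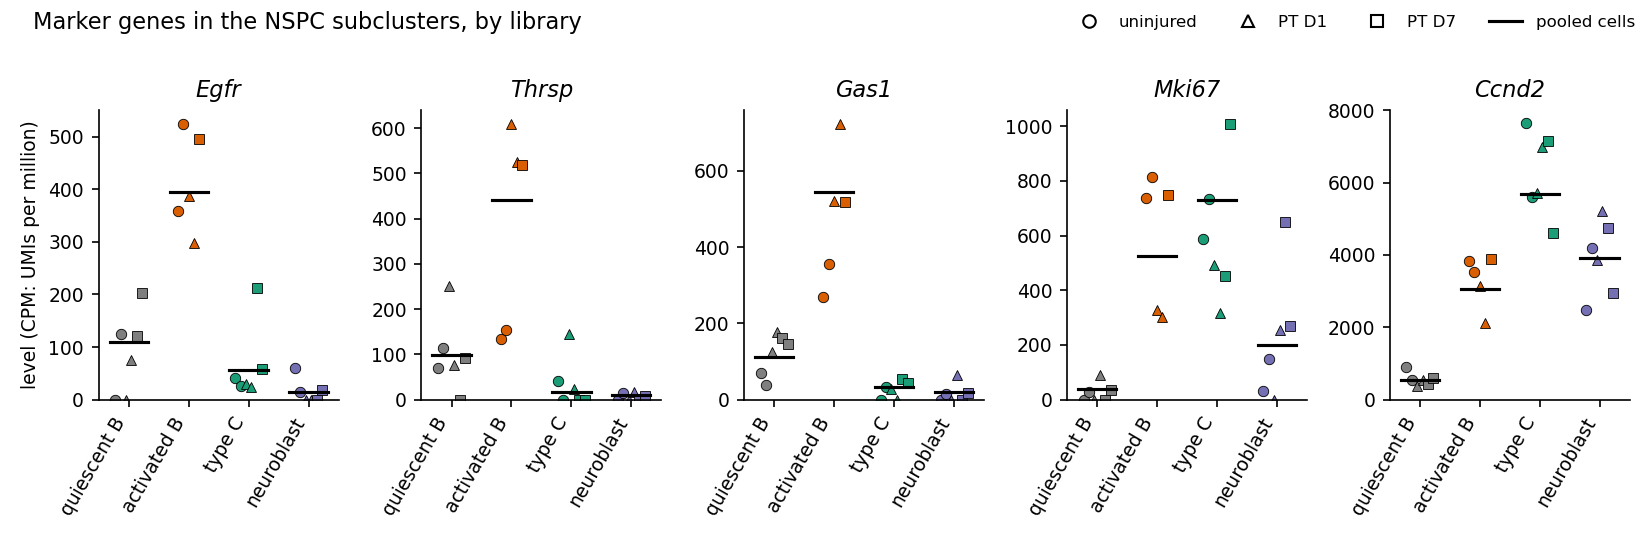
Levels of the 5 marker genes in CPM (linear vertical axes from 0) in the 4 NSPC subclusters, 1 point per library with its shape giving the condition, and a bar for all cells of the subcluster pooled. Egfr lies between 297 and 525 CPM in the 5 libraries with activated type B cells and at most 213 CPM in type C cells, while Mki67 and Ccnd2 are high in both.

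In single libraries Egfr had 358 and 525 CPM in uninjured, 387 and 297 CPM in PT D1 and 495 CPM in the 1 PT D7 library with activated type B cells. Type C cells of the same conditions, in this order, had 41.8 and 25 CPM, 29.1 and 24.5 CPM, and 213 and 57.7 CPM of Egfr. The 2 subclusters did not overlap in any of the 5 libraries that held both, and the highest type C value came from the PT D7 library without activated type B cells, where it rests on 8 UMIs in 3 of 6 cells. Whether the deposited subtype of these 6 cells is right was not tested. UMIs of Egfr were found in 86.7% of activated type B and 29.8% of type C cells, against 34% of quiescent type B cells, 7.5% of neuroblasts and 5.29% of microglia, the class that should lack it. After every cell had been thinned to 1000 UMIs these shares were 26.7%, 4.26%, 8%, 0% and 0.962%. The 0 of 80 neuroblasts allows a share of up to 3.75% of cells with a UMI at that depth, which is no limit on cells that express the gene.

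Across the 4 subclusters the cell-cycle genes separated both classes from their neighbours. All 35 genes of a mitosis list were higher in activated type B and type C cells together than in quiescent type B cells, with a median log2 ratio of 3.48, and all 35 were higher than in neuroblasts, with a median of 1.62. Their summed level was 9490 CPM against 694 CPM in quiescent type B cells and 2990 CPM in neuroblasts. Of 30 DNA replication genes 29 were higher than in quiescent type B cells (median 2.94) and 30 than in neuroblasts (median 2.37), summing to 5640 CPM against 498 and 1020 CPM. For comparison, over the genes with at least 50 CPM in all NSPCs the median log2 ratio was 0.57 against quiescent type B cells, where 2279 of 3159 were higher, and 0.35 against neuroblasts, where 2190 of 3158 were higher.

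Among the 634 genes with at least 200 CPM and UMIs in at least 50% of these cells, the highest ratio over quiescent type B cells and neuroblasts together belonged to 2810417H13Rik, now named Pclaf, a partner of the replication clamp, with a ratio of 10.9. It was followed by Rrm2, the small subunit of ribonucleotide reductase (10.7), Dut, which removes dUTP (10.1), and the clamp gene Pcna (8.54). Pcna-ps2, a processed pseudogene, had a ratio of 9.35, but its reads cannot be separated with certainty from those of Pcna. Further genes of high ratio were the G1 kinase gene Cdk6 (9.19), the mitotic kinase gene Pbk (8.44), cyclin A2 Ccna2 (7.18) and the chromatin gene Dek (6.07). Cdk6 had 343 and 258 CPM in activated type B and type C cells, against 23.2 CPM in quiescent type B cells and 39.1 CPM in neuroblasts.

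Most of the cyclins and their kinases followed, with 20 of 22 measured genes of that list above quiescent type B cells. The cyclins of G1 differed between the subclusters, since Ccnd1 had 79.3 CPM in activated type B cells and 7.59 CPM in type C cells, while Ccnd2 was higher in type C cells. Cyclin-dependent kinase inhibitors did not share 1 pattern. Cdkn1a, which encodes p21, had 232, 221, 124 and 36.9 CPM in quiescent type B, activated type B, type C cells and neuroblasts, Cdkn1b had 176, 187, 316 and 283 CPM, and Cdkn2c had 19.9, 144, 159 and 56.5 CPM. Cdkn2a was at 0 UMIs in all 4 subclusters.

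The promoters of these genes carry the sequence elements for which cell-cycle genes are known. The cell-cycle genes homology region (CHR) is the site at which the DREAM complex holds mitotic genes silent in resting cells, the CCAAT box binds NF-Y, and E2F sites lie in genes of the replication machinery. In RefSeq windows from 250 bases before to 50 bases after the start (GRCm38.p6), CHR letters (TTTGAA or TTCGAA, on either strand) were in 23 of the 31 mitosis promoters found (74.2%), in 4 of 26 replication promoters (15.4%) and in 21.7% of all 27025 genes. E2F letters (TTTCCCGC, TTTGGCGC, TTTCGCGC or TTTGCCGC, on either strand) were in 1 of 31 mitosis promoters (3.23%), 11 of 26 replication promoters (42.3%) and 2.6% of all genes. CCAAT on either strand was in 77.4% and 61.5% of the 2 lists and in 41.1% of all genes. In 19 promoters of a neuronal commitment list CCAAT was in 63.2%, CHR letters in 31.6% and E2F letters in 0%. CCAAT was thus no more frequent in the replication list than there. In 16 promoters of a quiescent and astroglial list the shares were 31.2%, 25% and 0%. For the mitosis and replication lists each, the 2 most abundant genes with its letters in the last 160 bases before the start are shown. They are examples of the 2 arrangements, with CHR, E2F and CCAAT letters of either strand in capitals. Hmgb2 lies at chr8:57511683-57511842 on the plus strand, Top2a at chr11:99024190-99024349 on the minus strand, Mcm6 at chr1:128359706-128359865 on the minus strand and Mcm5 at chr8:75109349-75109508 on the plus strand of GRCm38.p6.
Hmgb2: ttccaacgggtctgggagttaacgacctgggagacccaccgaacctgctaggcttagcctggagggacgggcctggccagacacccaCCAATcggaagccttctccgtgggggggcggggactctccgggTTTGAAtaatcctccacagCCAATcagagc
Top2a: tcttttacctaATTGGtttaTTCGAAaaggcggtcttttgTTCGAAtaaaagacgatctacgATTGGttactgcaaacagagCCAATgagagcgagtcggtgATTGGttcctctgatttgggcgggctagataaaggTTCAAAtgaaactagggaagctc
Mcm6: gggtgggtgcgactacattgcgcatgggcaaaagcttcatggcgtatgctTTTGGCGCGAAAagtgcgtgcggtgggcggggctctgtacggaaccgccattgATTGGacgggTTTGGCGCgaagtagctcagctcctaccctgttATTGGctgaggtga
Mcm5: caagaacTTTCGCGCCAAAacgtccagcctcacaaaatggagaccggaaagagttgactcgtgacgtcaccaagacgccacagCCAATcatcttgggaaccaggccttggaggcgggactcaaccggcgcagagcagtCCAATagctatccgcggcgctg
In Hmgb2, which encodes a chromatin protein of dividing cells, the CHR letters begin 30 bases before the start, between CCAAT boxes that begin 73 and 11 bases before it. Top2a, topoisomerase II alpha, has 3 CHR matches, of which 0.374% of all genes have as many, and 4 CCAAT boxes. The replicative helicase genes Mcm6 and Mcm5 have E2F letters on both strands that overlap each other, and neither has a CHR match in the bases shown. Hmgb2 had 212, 2100, 2230 and 563 CPM in quiescent type B, activated type B, type C cells and neuroblasts, Top2a 39.8, 716, 1020 and 222 CPM, Mcm6 33.2, 209, 268 and 60.9 CPM, and Mcm5 13.3, 137, 212 and 39.1 CPM. A match of letters describes the promoter and does not show that a factor was bound in these cells.

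The deposited phase calls gave the same order. These calls are scored from S and G2M genes, the kind of gene in both lists above, so they are no separate support. They rest on an S score and a G2M score per cell, and all 658 calls equal the rule that a cell with both scores below 0 is G1 and any other takes the phase of its higher score. Of the activated type B cells 4 were G1, 21 S and 20 G2M, so that 91.1% (exact 95% interval 78.8 to 97.5%) were in S or G2M. Of the type C cells 0 were G1, 25 S and 22 G2M, or 100% (92.5 to 100%). The same share was 6% (1.25 to 16.5%) in quiescent type B cells, 40% (29.2 to 51.6%) in neuroblasts and 6.97% (4.72 to 9.86%) in microglia. These intervals cover counting error only.

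**Figure D2:**
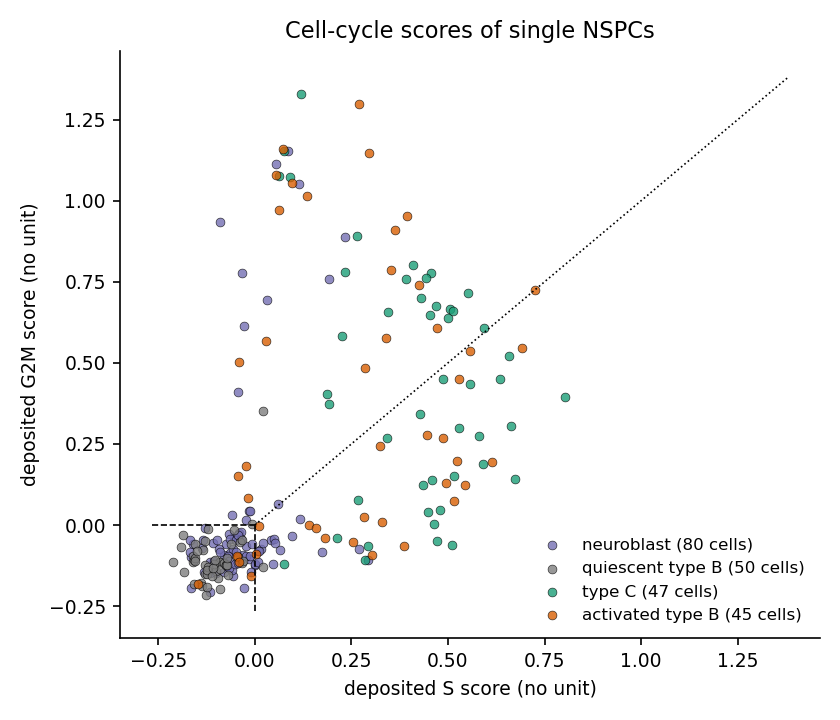
Deposited S score (horizontal) and G2M score (vertical, both without unit) of the 222 NSPCs, 1 point per cell. The dashed lines bound the G1 corner and the dotted line separates S from G2M calls. Of 92 activated type B and type C cells 71 have both scores above 0, against 1 of 50 quiescent type B cells.

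Most of these cells scored for both phases. Both scores were above 0 in 30 of 45 activated type B cells and 41 of 47 type C cells, against 8 of 80 neuroblasts. Within 0.05 of the G1 boundary lay 5 activated type B cells and 0 type C cells, against 37 neuroblasts. The 4 activated type B cells called G1 held UMIs of Egfr in 4 of 4 cells and 0 UMIs of Mki67 and Top2a, at a median of 6491.5 UMIs per cell, against 8256 in S and 10071.5 in G2M. Egfr had 421 CPM in the S cells and 356 CPM in the G2M cells of this subcluster, while Mki67 had 210 and 899 CPM. Mki67 and Top2a belong to the G2M genes of Seurat's scoring, so their levels by phase follow in part from the calls.

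Calls made again from all UMIs were the same in 90 of 92 cells. With every cell thinned to 1000 UMIs they were the same in 78 of 92, and the share in S or G2M was 96.7%. At that depth the shares outside these subclusters moved more, to 38% in quiescent type B cells and 57.5% in neuroblasts. The thinned calls also rested on fewer scoring genes, 26 for S and 43 for G2M against 42 and 54 with all UMIs. The distance between the classes thus depended on the thinning, and the parts of depth and gene set were not tested apart.

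Along the lineage these cells stood between quiescent type B cells and neuroblasts. All 20 genes of a quiescent and astroglial list were lower than in quiescent type B cells (median log2 ratio -3.67), and their sum was 4320 CPM against 45200 CPM. Among the 464 genes with at least 200 CPM and UMIs in at least 50% of quiescent type B cells and neuroblasts together, Clu (clusterin) and Aldoc (aldolase C) led those that were lower, with ratios of 35.7 and 18 of quiescent type B cells and neuroblasts over these cells. The same list was still above neuroblasts for 17 of 20 genes (median 1.26). Of 27 genes of neuronal commitment 26 were above quiescent type B cells (median 3.01) and 4 above neuroblasts (median -1.51), with summed levels of 9740, 1460 and 17300 CPM. The genes furthest above neuroblasts were Hes6, a partner of proneural factors, and Gsx2, a patterning factor of the ventral progenitor zone, at 291 against 80.4 CPM and 103 against 15.2 CPM.

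**Figure D3:**
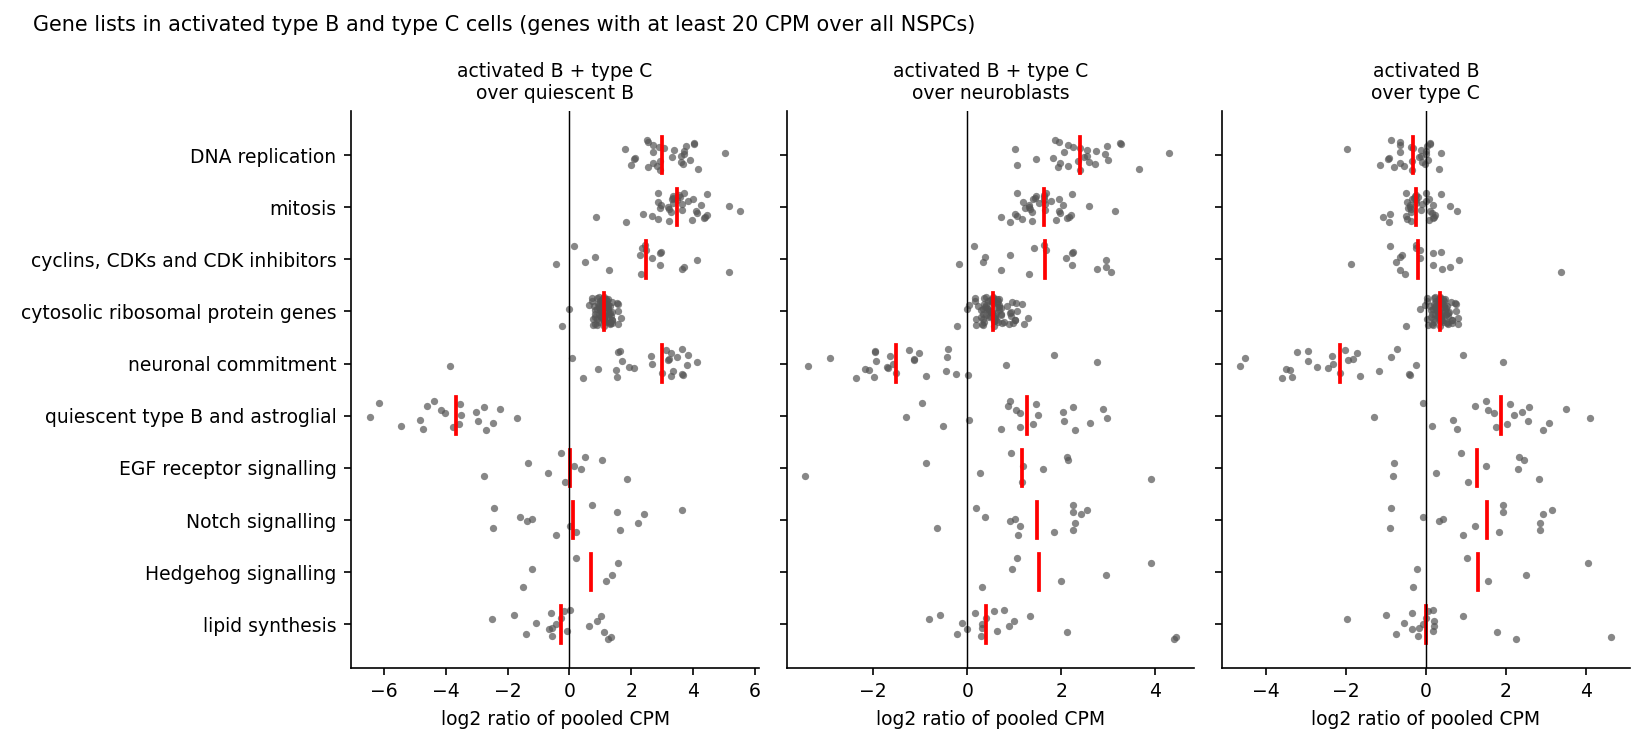
Log2 ratios of pooled CPM for the genes of 10 lists with at least 20 CPM over all NSPCs, 1 point per gene, with the median of each list in red. The mitosis median is 3.48 over quiescent type B cells and 1.62 over neuroblasts and lies near 0 (-0.25) between the 2 subclusters, where the neuronal commitment median is -2.15.

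Set against each other, the subclusters differed little in the cell cycle and widely in identity. Of the 35 mitosis genes 13 were higher in activated type B cells (median log2 ratio -0.25), and of the 30 replication genes 8 (median -0.33), beside a median of -0.03 over 3156 genes. The astroglial list was higher in activated type B cells for 18 of 19 genes (median 2.04), and the neuronal commitment list for 2 of 27 (median -2.14). Hes6 was 1 of these 2, at 454 against 119 CPM.

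Among the genes highest in activated type B over type C cells, of 616 with at least 200 CPM and UMIs in at least 50% of activated type B cells, were Thrsp with a ratio of 25, Tnfrsf19 (24.0), a receptor of the TNF family, Nptx2 (20.1), a secreted pentraxin, Gas1 (16.6), Mfge8 (12.3), which encodes a secreted protein that binds phosphatidylserine, the metallothionein genes Mt1 (10.9) and Mt2 (10.7), Egfr (7.08) and the antiproliferative gene Btg2 (6.14). These ratios pool the conditions and carry their mix, as 25 of 45 activated type B but 9 of 47 type C cells came from PT D1. In uninjured libraries alone Mt1 had 134 and 237 against 0 and 58.4 CPM, and Thrsp 134 and 153 against 41.8 and 0 CPM. Gas1 had 269 and 356 CPM in uninjured, 521 and 724 CPM in PT D1 and 518 CPM in PT D7 activated type B cells, and between 0 and 53.2 CPM in type C cells. Every library of activated type B cells thus lay above every library of type C cells for Gas1.

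The genes highest in type C over activated type B cells were ranked by the same rule, among 658 genes with at least 200 CPM and UMIs in at least 50% of type C cells, which leaves out scarcer genes of high ratio such as Dlx5. They were Sp9, a factor of inhibitory neurons, with a ratio of 23.2, the long noncoding RNA Dlx6os1 (12.1), the microtubule protein genes Dcx (10.2), Crmp1 (7.99) and Stmn2 (7.75), the factors Prox1 (7.99) and Bcl11a (5.12), Nrep (7.61), Cd24a (5.42) and neuronal tubulin Tubb3 (5.09). Dcx had 544 and 334 CPM in uninjured, 320 and 367 CPM in PT D1 and 319 and 252 CPM in PT D7 type C cells. Activated type B cells had between 17.0 and 112 CPM of Dcx, below every type C library, and neuroblasts from 541 to 888 CPM, which met the type C range only in uninjured library 1. Dlx1 and Dlx2, homeobox genes of the same path, had 1250 and 938 CPM in type C cells against 1040 and 700 CPM in neuroblasts.

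In single cells the neuronal commitment list separated the subclusters. Only 1 of 45 activated type B cells exceeded the type C median for the share of UMIs from this list, and 2 of 47 type C cells lay below the upper quartile of activated type B cells. Conversely 26 of 47 type C cells lay above the lower quartile of neuroblasts. UMIs of Mki67 and Dcx were found together in 31 of 47 type C cells, in 5 of 45 activated type B cells and in 16 of 80 neuroblasts. Singly, Mki67 had UMIs in 41 type C cells, 27 activated type B cells and 17 neuroblasts, and Dcx in 34, 9 and 77. UMIs of Egfr and Mki67 were found together in 24 of 45 activated type B and 14 of 47 type C cells. Egfr by itself had UMIs in 39 and 14 of these cells. UMIs of Gfap, the astroglial filament gene, were in 13 activated type B cells, 11 of which also had Egfr. Whether any pair met more often than the single counts imply was not tested.

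Signalling genes lay mostly on the activated type B side. Of 13 measured genes of EGF receptor signalling 11 were higher there than in type C cells (median 1.06). Over the genes with at least 50 CPM in all NSPCs, a level that 5 of the EGF receptor genes reached, 1502 of 3156 were higher there (median -0.03). The ligands were scarce in both, with Egf at 2.4 and 0 CPM and Hbegf at 21.6 and 7.59 CPM against 99.6 CPM in quiescent type B cells. Among genes that respond to the receptor, the factor gene Etv5 had 59.8, 139, 27.8 and 19.6 CPM along the lineage and the inhibitor gene Spry2 46.5, 62.5, 12.6 and 8.69 CPM. Type C cells were thus near the neuroblast level for these responders but above it for the receptor gene itself, while Etv1, an ETS factor of olfactory neurons, was highest in neuroblasts, at 243 CPM.

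In the Notch pathway, ligands and targets parted. The ligand genes Dll1 (81.7 CPM), Dll3 (64.9 CPM) and Jag1 (67.3 CPM) were higher in activated type B cells than in quiescent type B cells (6.64, 0 and 13.3 CPM) and type C cells (22.8, 27.8 and 7.59 CPM). The target genes Hes5 and Hes1 were highest in quiescent type B cells, at 176 and 93 CPM, with 57.7 and 55.2 CPM in activated type B and 5.06 CPM each in type C cells. Of the receptor genes, Notch1 had 120, 154, 121 and 63 CPM along the lineage and Notch2 166, 48, 12.6 and 6.52 CPM.

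Of 8 measured Hedgehog genes 6 were higher in activated type B than in type C cells (median 1.35), beside 1502 of 3156 genes with at least 50 CPM. The pathway target genes Gli1 and Ptch1 had 21.6 and 74.5 CPM in activated type B cells. Type C cells had 0 and 25.3 CPM and quiescent type B cells 6.64 and 43.2 CPM. These levels rest in turn on 9 and 31, 0 and 10, and 2 and 13 UMIs. The share of cells with a UMI of Ptch1 was similar in the 3 subclusters, at 22.2%, 19.1% and 22%. The oligodendrocyte factors Olig2 and Olig1 had 161 and 74.5 CPM in activated type B cells and 5.06 and 0 CPM in type C cells, while Sox10 and Gpr17, which mark committed oligodendrocyte cells, were at 0 UMIs in both. Of 75 cytosolic ribosomal protein genes 72 were above quiescent type B cells (median 1.09) and 71 higher in activated type B than in type C cells (median 0.36), summing to 24100, 57700, 45300 and 34900 CPM along the lineage.

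The question of the stroke conditions was asked over libraries. UMIs of both subclusters were summed per library and fitted for 3126 genes with edgeR's quasi-likelihood test, the p values adjusted by the Benjamini-Hochberg method. At PT D1 21 genes were called against uninjured mice at an adjusted p under 0.05 (0.672% of those tested), 13 higher and 8 lower. At PT D7 2 genes were called against uninjured mice (0.064%), both lower. Between PT D7 and PT D1 11 genes were called (0.352%), 4 higher and 7 lower at PT D7. The comparisons share libraries and are not independent. Because 25 of 34 cells at PT D1, 8 of 23 in uninjured mice and 12 of 35 at PT D7 were activated type B cells, a gene that differs between the subclusters also differs with the mix, and most called genes are therefore given within a subcluster too. In a fit of separate sums per subcluster, with the subcluster as a covariate, 13 of the 21 genes called at PT D1 could be tested. All 13 were called again, as were 6 of the 9 of PT D7 against PT D1. That fit treats both sums of a library as independent replicates, although they are not. Its adjusted p values and calls carry this limit wherever they are given below. Other settings ended calls, since DESeq2 kept 3 of the 21, type C cells alone 1 of the 8 that could be tested, and the fits without uninjured library 2 or PT D1 library 2 12 of 20 and 11 of 19. With any single library left out, PT D1 gave between 23 and 117 calls.

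The genes for metallothioneins, which bind zinc and copper and respond to stress, were higher at PT D1. Mt1 had 87.5 and 117 CPM in uninjured, 1020 and 1270 CPM in PT D1 and 133 and 179 CPM in PT D7 libraries. Both PT D1 libraries lay far above the other 4, whose highest value was 179 CPM. Mt1 rose by a log2 fold change of 3.46 ± 0.31 (SE, n = 2 libraries per group) at PT D1 (edgeR adjusted p = 7.74e-06) and fell again by 2.84 ± 0.30 from PT D1 to PT D7 (adjusted p = 0.000148). Within activated type B cells alone Mt1 had 134 and 237 CPM in uninjured, 1520 and 1540 CPM in PT D1 and 341 CPM in PT D7 cells, and in type C cells it had 0 and 58.4, 58.2 and 245, and 133 and 72.1 CPM. The highest type C value, of PT D1 library 2, rests on 10 UMIs, and the other PT D1 library lay within the range of the rest. Mt2 behaved likewise, with 403 and 1120, 3840 and 2770, and 1090 CPM in activated type B cells, and its changes were 2.63 ± 0.34 (adjusted p = 0.000668) and -2.56 ± 0.34 (adjusted p = 0.00105). In quiescent type B cells of the same libraries Mt1 had 4170 and 1960 CPM in uninjured and 8400 and 9210 CPM at PT D1, and in microglia 74.1 and 120 against 503 and 719 CPM. At PT D7 Mt1 had 3100 and 1850 CPM in quiescent type B cells and 115 and 155 CPM in microglia, so in these 2 classes, unlike in type C cells, both PT D1 libraries were the highest. The part of RNA shared between cells of a library was not tested.

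The cold-inducible RNA-binding protein genes Rbm3 and Cirbp rose in the same way, and here the levels of both subclusters showed it. A fit of type C cells alone called 0 genes higher at PT D1 and 0 between PT D7 and PT D1, so neither gene was called there. Rbm3 had 224 and 322 CPM in uninjured and 1430 and 1070 CPM in PT D1 activated type B cells, and 460 and 475 against 1250 and 1320 CPM in type C cells. The PT D1 values lay above all uninjured and PT D7 values in each subcluster. The changes of the sums were 1.75 ± 0.29 for Rbm3 (adjusted p = 0.00712) and 2.28 ± 0.41 for Cirbp (adjusted p = 0.0151) at PT D1, and -1.45 ± 0.29 (adjusted p = 0.0411) and -2.47 ± 0.42 (adjusted p = 0.0116) from PT D1 to PT D7. Microglia of the same libraries had 60.4 and 61.9 CPM of Rbm3 in uninjured and 403 and 337 CPM at PT D1, and 22.0 and 10.7 against 94.5 and 75.9 CPM of Cirbp. Neuroblasts went from 150 and 177 to 662 and 461 CPM of Rbm3, so the same libraries were high in these classes too, and library and stroke cannot be told apart. In the 17 cells with UMIs of fewer than 3 microglial markers, Rbm3 differed by 0.04 between PT D7 and PT D1 (adjusted p = 0.994). There the PT D1 libraries held only 2 and 3 cells with 5963 and 8249 UMIs, and the PT D7 libraries 3 and 5 cells. Only 177 genes could be tested in that set. Every value from the 17 cells, here and below, carries these limits, and the part of microglial RNA in it was not tested.

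**Figure D4:**
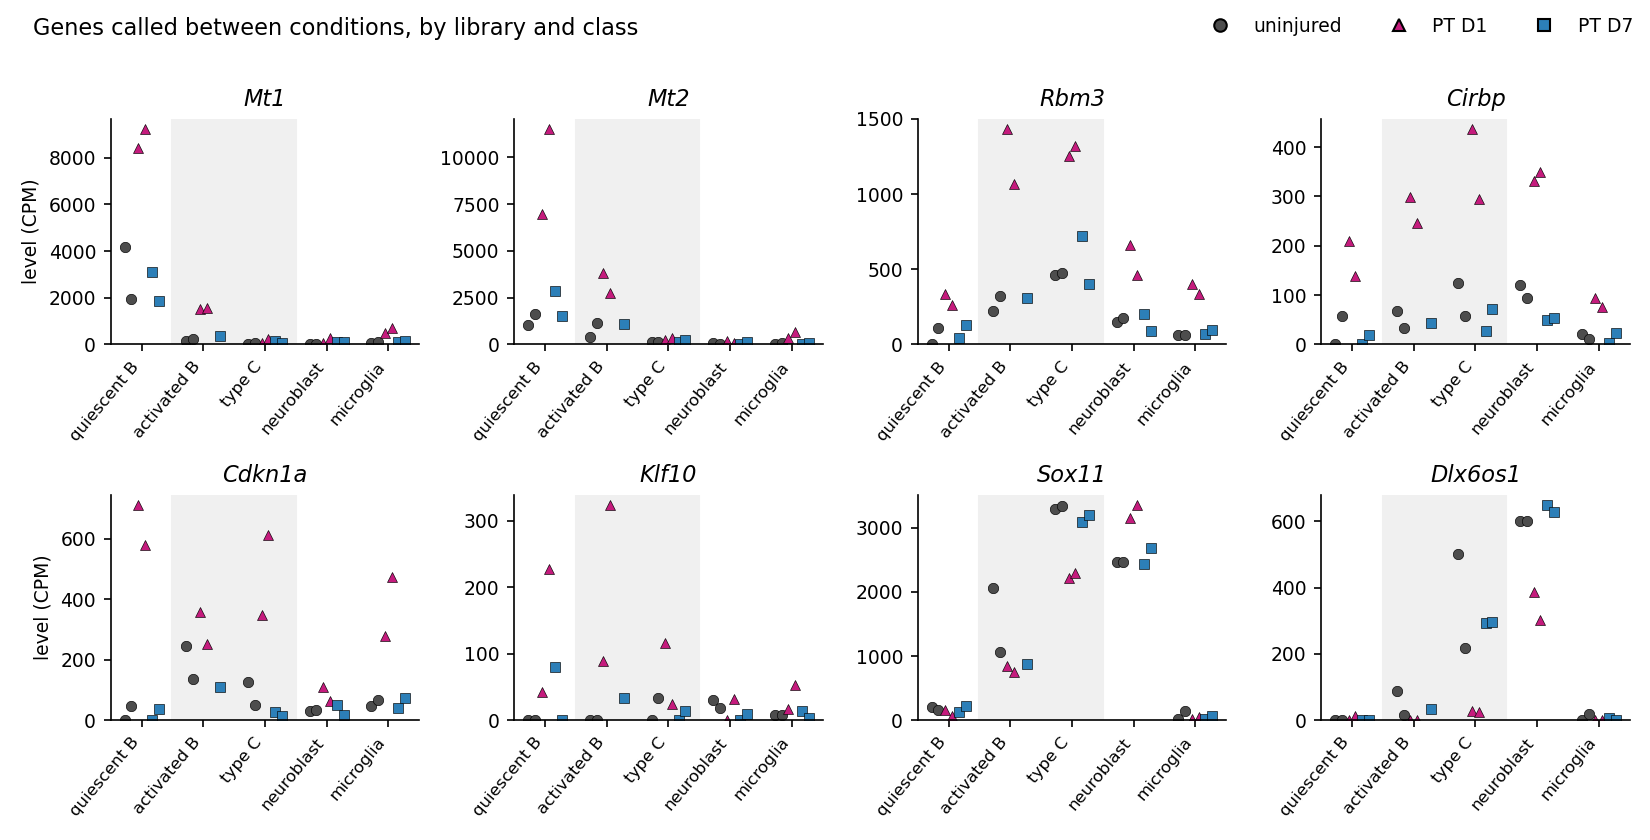
Levels in CPM (linear vertical axes from 0) of 8 genes called between conditions, 1 point per library in each class of cells, with activated type B and type C cells on grey. Rbm3 and Cirbp are highest at PT D1 in all 5 classes, whereas Sox11 is lower at PT D1 in type C cells (2210 and 2300 CPM) and not in neuroblasts (3150 and 3350 CPM).

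The gene for the cell-cycle inhibitor p21 was called between PT D7 and PT D1, and 2 immediate early genes at PT D1. Cdkn1a had 125 and 50.0 CPM in uninjured, 349 and 612 CPM in PT D1 and 26.6 and 14.4 CPM in PT D7 type C cells, without overlap between PT D1 and the others. In activated type B cells it had 246 and 136, 357 and 252, and 110 CPM, with the lower PT D1 library close to the higher uninjured one. In the sums it missed the threshold at PT D1 against uninjured mice (1.53 ± 0.40, adjusted p = 0.116) and was called between PT D7 and PT D1 (-2.87 ± 0.47, adjusted p = 0.0083), and in microglia it had 278 and 473 CPM at PT D1 against 46.7 and 68.3 CPM in uninjured libraries. Klf10, an early response factor of TGF-beta signalling, had 0 and 22.4 CPM in uninjured, 98.4 and 261 CPM in PT D1 and 0 and 21.8 CPM in PT D7 libraries, with a change of 3.59 ± 0.71 at PT D1 (adjusted p = 0.0223) that rests on 4 against 61 UMIs. In activated type B cells alone Klf10 had 0 and 0 CPM in uninjured, 89.3 and 323 CPM in PT D1 and 33 CPM in PT D7 cells, while in type C cells 1 PT D1 library, at 24.5 CPM, lay below the higher uninjured one, at 33.4 CPM. Egr1 had 29.2 and 55.9, 217 and 368, and 160 and 43.6 CPM in the same order (2.70 ± 0.51 at PT D1, adjusted p = 0.0184), and with the subcluster in the fit its change was 2.49 ± 0.54 (adjusted p = 0.0136). Of 6 immediate early genes tested, these 2 were called higher at PT D1, 4 had a log2 change above 0 and 2 below, and the median was 2.26. Of all 3126 genes tested 13 were called higher, and the median log2 change over all of them was 0.01.

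Thrsp and Olig2, found mainly in activated type B cells, were higher at PT D1. Thrsp had 134 and 153 CPM in uninjured, 610 and 524 CPM in PT D1 and 518 CPM in PT D7 activated type B cells, with the uninjured libraries below the rest, and its change in the sums was 2.73 ± 0.55 (adjusted p = 0.0223), and 2.13 ± 0.54 with the subcluster in the fit (adjusted p = 0.0322). Olig2 had 22.4 and 17.0, 119 and 239, and 220 CPM in the same cells. Its sums were 2 UMIs in uninjured and 45 UMIs in PT D1 libraries, a ratio of 18.7 with a counting interval from 4.89 to 159 (log2 change 4.07 ± 0.79, adjusted p = 0.0198). The astroglial genes Sparcl1 (3.19 ± 0.58, adjusted p = 0.0151) and Fam107a (3.44 ± 0.74, adjusted p = 0.0411, 3 against 41 UMIs) and the factor gene Klf3 (3.27 ± 0.61, adjusted p = 0.0175) were called as well, as were the synaptic gene Cplx2 and the respiratory chain gene Ndufc2. Within activated type B cells Sparcl1 had 22.4 and 50.9 CPM in uninjured and 193 and 388 CPM in PT D1 libraries, Fam107a 0 and 33.9 against 119 and 181 CPM, and Klf3 22.4 and 0 against 149 and 323 CPM. In type C cells each of these 3 genes rests on at most 7 UMIs per library. Klf3 had 41.8 CPM in an uninjured library there and 29.1 and 0 CPM at PT D1, so its PT D1 libraries were not higher. For Sparcl1 and Fam107a the highest type C library was PT D1 library 2, at 171 and 97.9 CPM. Ndufc2 had 426 and 390 CPM in uninjured and 893 and 867 CPM in PT D1 activated type B cells, while microglia had from 71.2 to 97.3 CPM in all libraries. Ndufc2 and Thrsp are neighbours on chromosome 7, at chr7:97049210-97057022 and chr7:97062139-97066937 of GRCm39.

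Some genes of the neuronal path were called lower at PT D1. Sox11, a factor of immature neurons, had 2490 and 2590 CPM in uninjured, 1310 and 1070 CPM in PT D1 and 3090 and 2280 CPM in PT D7 libraries, with PT D1 below all others. It fell by 1.05 ± 0.20 (log2, adjusted p = 0.0198) and was higher at PT D7 than at PT D1 by 1.07 ± 0.21 (adjusted p = 0.0343). Within type C cells Sox11 had 3300 and 3340, 2210 and 2300, and 3090 and 3200 CPM, and in a fit of type C cells alone its change at PT D1 was -0.52 ± 0.20 (adjusted p = 0.366). With the subcluster in the fit Sox11 changed by -0.71 ± 0.19 at PT D1 (adjusted p = 0.0416), while its difference between PT D7 and PT D1 lost its call (0.37 ± 0.20, adjusted p = 0.492), and in the 17 cells with fewer microglial markers it was -0.12 (adjusted p = 0.994). Dlx6os1 had 502 and 217 CPM in uninjured, 29.1 and 24.5 CPM in PT D1 and 293 and 296 CPM in PT D7 type C cells, and its sums were 43 against 2 UMIs (a ratio of 25.8, counting interval 6.73 to 220). Neuroblasts of the PT D1 libraries had 386 and 302 CPM of Dlx6os1 against 602 and 602 CPM in uninjured ones. Dlx2 had 586 and 1080 CPM in uninjured, 582 and 612 CPM in PT D1 and 904 and 1070 CPM in PT D7 type C cells, with the lower uninjured library among those of PT D1. In the sums Dlx2 was called higher at PT D7 than at PT D1 (1.65 ± 0.33, adjusted p = 0.0411), but the call was lost with the subcluster in the fit (1.02 ± 0.31, adjusted p = 0.14) and in type C cells alone (0.72 ± 0.32, adjusted p = 0.608). Against uninjured mice it missed the threshold at PT D1 (-1.47 ± 0.33, adjusted p = 0.0501). Of 22 commitment genes tested 2 were called lower at PT D1 and 20 had a log2 change below 0 (median -0.70), beside 8 called lower and 1536 below 0 of all 3126 genes. The list summed to 17500 and 14100 CPM in uninjured, 12100 and 13200 CPM in PT D1 and 14500 and 14600 CPM in PT D7 type C cells, and to 7320 and 5370, 4420 and 4800, and 6360 CPM in activated type B cells. PT D1 libraries were the lowest within each subcluster, by less than in the sums of both, which had 10900 and 11200 CPM in uninjured and 7020 and 6570 CPM in PT D1 libraries. From PT D1 to PT D7 3 were called higher and 20 were above 0 (median 0.90), beside 4 called higher and 1501 above 0 of all 3126 genes (median -0.03).

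The remaining genes called lower at PT D1 were Pou3f4 (-2.45 ± 0.48, adjusted p = 0.0198), a factor of neural precursors, the actin-binding protein gene Ccdc88a (-1.47 ± 0.33, adjusted p = 0.0492), Erdr1 (-2.10 ± 0.41, adjusted p = 0.0198) and C330027C09Rik (-2.08 ± 0.46, adjusted p = 0.0492). Pou3f4 had 502 and 200 CPM in uninjured and 87.2 and 48.9 CPM in PT D1 type C cells, without overlap, whereas the libraries of activated type B cells overlapped, at 22.4 and 119 against 29.8 and 12.9 CPM. The calls of C330027C09Rik and Ccdc88a lay close to the threshold and were kept in 3 of 15 and 10 of 20 other settings, and in activated type B cells alone Ccdc88a had a change of -0.58 ± 0.43 (adjusted p = 0.606). Ddx17, an RNA helicase gene, was called higher at PT D7 than at PT D1 (2.06 ± 0.41, adjusted p = 0.0411), a call that was lost with the subcluster in the fit (1.90 ± 0.49, adjusted p = 0.069).

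Ttr and Enpp2, which choroid plexus epithelium makes in abundance, were the only 2 genes called at PT D7, and by log2 change the most changed of those called at PT D1. Ttr had 1330 and 3780 CPM in uninjured libraries and between 19.7 and 52.3 CPM in the other 4, a log2 change of -6.51 ± 0.53 at PT D1 (adjusted p = 3.49e-06) and -5.76 ± 0.52 at PT D7 (adjusted p = 1.56e-05). In microglia of the same uninjured libraries Ttr had 9840 and 4170 CPM against 186 to 553 CPM elsewhere, and in neuroblasts 1350 and 3240 against 26.9 to 110 CPM. Ttr was thus high in the uninjured libraries in every class of cell, microglia included, and the part of RNA from choroid plexus was not tested. Enpp2 had 72.9 and 386 CPM in uninjured libraries and 0 to 5.12 CPM in the others, and its changes rest on 74 UMIs against 1 UMI at PT D1 and 74 against 1 at PT D7.

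The cell-cycle lists gave no call at PT D1. Of 34 mitosis genes tested 0 were called, 30 had a log2 change below 0 and the median was -0.57, beside 1536 of all 3126 genes below 0 and a median of 0.01. From PT D1 to PT D7 0 were called, 31 were above 0 and the median was 0.59, beside 1501 of 3126 above 0 and a median of -0.03, and at PT D7 against uninjured mice the median was 0.00. Mki67 had 686 and 760 CPM in uninjured, 384 and 307 CPM in PT D1 and 452 and 906 CPM in PT D7 libraries, with both PT D1 libraries below the other 4. Of 25 replication genes 0 were called and 18 were below 0, with a median of -0.14. Of 6 EGF receptor, 3 Notch and 3 Hedgehog genes tested 0 were called at PT D1, with medians of 0.60, 0.57 and 1.02. In a simulation of this comparison the test recovered 12% of 184 genes changed by 2-fold and 82.6% of 184 changed by 4-fold. It gave 0 and 7 false calls. The simulation gave every gene the same spread and every library the same mix of subclusters, unlike these data, so recovery here may be lower.

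The phase calls are given by condition as a description. In S or G2M were 23 of 23 cells in uninjured libraries (100%, exact 95% interval 85.2 to 100%), 31 of 34 at PT D1 (91.2%, 76.3 to 98.1%) and 34 of 35 at PT D7 (97.1%, 85.1 to 99.9%). The share in G2M was 43.5% (23.2 to 65.5%), 38.2% (22.2 to 56.4%) and 54.3% (36.6 to 71.2%). These intervals cover counting error over pooled cells and do not compare the conditions. Within PT D7 the libraries held 1 of 6 cells in G2M in library 1 and 18 of 29 in library 2. With 2 libraries against 2 an exact two-sided permutation test cannot give a p below 0.33, so it cannot say whether these shares differed.

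**Figure D5:**
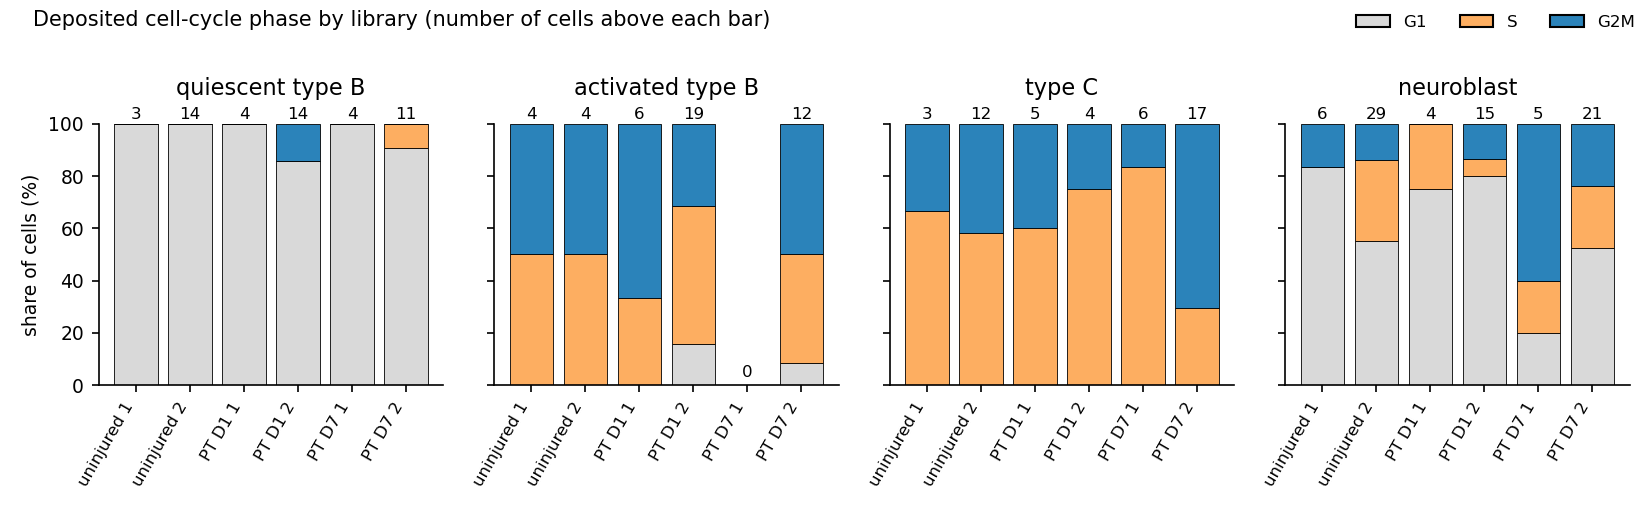
Share of cells in G1, S and G2M (percent, stacked to 100) in each library for the 4 NSPC subclusters, with the number of cells above each bar. Activated type B and type C cells are almost all in S or G2M in every library, with G1 cells only in PT D1 library 2 (3 cells) and PT D7 library 2 (1 cell).

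The change at PT D1 was also compared between the subclusters by an interaction term, in the 5 libraries with at least 3 cells of each. Of 2149 genes 0 were called by edgeR (0%), with 114 at an unadjusted p under 0.05, and without the library as a block 0 were called and 101 were under 0.05. The higher Mt1 and Thrsp of activated type B cells at PT D1 (interaction adjusted p = 0.967 and 0.970) is thus not shown to differ from the change in type C cells.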

How the data were processed

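The authors sorted single cells into wells, sequenced them by mCEL-Seq2, demultiplexed the reads with bcl2fastq 2.17.1.14, and deposited UMI counts for 34203 genes in 658 cells. The labels name GRCm39. For the aligner, the counter and the gene models, which could move single genes, the entry is "not given in the sources used here". Spike-ins, 92 ERCC sequences, hold 0 UMIs. By their methods the authors kept cells with over 1000 UMIs and at most 25% mitochondrial reads and discarded cells more than 3 median absolute deviations from the median, and doublets were gated out at the sorter by pulse width. No doublet caller was run here. The deposited cell table gives each cell's cell type, subtype, phase, S score and G2M score from Seurat, and the deposited percent of mitochondrial UMIs. Its 9 other columns were not used.

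Counts of activated B and C cells were summed per library and fitted over all 6 libraries with edgeR 4.0.16 (TMM, quasi-likelihood test, Benjamini-Hochberg adjustment, R 4.3.3) after a filter on low counts. Libraries are the replicates, nothing says that they came from separate mice, and p values measure the spread between these libraries. DESeq2 1.42.0 and limma 3.58.1 voom, other filters, single subclusters, subcluster as a covariate, thinned cells and leaving out each library or doubtful cells were alternatives. Phases were called again with Seurat 5.3.0. Changes are on the log2 scale with the error from the fit. Intervals for shares are exact Clopper-Pearson at 95%, and where a count is 0 the limit is 3 counts. Scripts were tested on simulated data.

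Levels between subclusters pool all cells of a class, and a class with fewer than 3 UMIs of a gene was set to 3 UMIs in ratios. Named genes are the 5 markers, members of the lists, the 10 genes with the largest ratios among those with at least 200 CPM and UMIs in at least 50% of cells on the higher side, and the 8 largest rises and falls among called genes without overlap between libraries. The remaining called genes were named after their values were seen, and some genes that the rule names are not reported here. The members and lists were chosen with earlier results of these data known. Ratio lists between subclusters and phases by subcluster carry no test, because the subclusters were drawn from the same counts.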

Additional observations from a re-analysis of the deposited data

How the results depend on the processing

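The number of genes called depended on the processing more than their direction did. At PT D1 against uninjured mice (21 calls) DESeq2 gave 3, no filter on low counts 40, and at least 10 UMIs in every library 1. Only the 2 conditions compared gave 12, and the subcluster as a covariate 36. With that covariate, limma voom with the library as a random effect gave 56. Type C cells alone gave 1, and activated type B cells alone 55. A ceiling of 15% mitochondrial UMIs gave 32, thinning each cell to 1000 UMIs 4, and the 17 cells with fewer than 3 microglial markers 0. In the same order PT D7 against uninjured mice (2 calls) gave 1, 5, 0, 5, 1, 4, 1, 10 and 4 without the thinned setting, which left 2, and 0 for the 17 cells. PT D7 against PT D1 (11 calls) gave 2 by DESeq2, 30 without a filter, 0 with at least 10 UMIs and 7 with only the 2 conditions. With the subcluster as a covariate it gave 12 by edgeR and 42 by voom with the library as a random effect. It gave 0 in type C cells, 20 in activated type B cells, 1 in thinned cells and 0 in the 17 cells. Beside the counts of 0, edgeR gave at an unadjusted p under 0.05 5, 3 and 3 genes in the 17 cells for the 3 comparisons in turn, 13 and 79 with at least 10 UMIs, and 50 in type C cells. Sox11 and Rbm3 turned direction only in the 17 cells, at -0.12 and 0.037 between PT D7 and PT D1. Over the genes named, 367 values kept direction and call, 119 kept direction and lost the call, and 2 turned. Mt1 kept its call at PT D1 and from PT D1 to PT D7 under all 17 alternatives that gave it a value. The cause of these differences was not tested.

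Leaving out 1 library gave 23 to 117 calls at PT D1, 3 to 10 at PT D7 and 15 to 63 between them. Without uninjured library 1 the PT D1 count was 50, without PT D1 library 1 it was 67, and without PT D7 library 1 or 2 it was 117 or 51. For PT D7 against uninjured mice the counts without uninjured library 1 or 2, PT D1 library 1 or 2 and PT D7 library 1 were 6, 7, 8, 10 and 6, and for PT D7 against PT D1 they were 58, 61, 58, 19 and 63. A fit without a library has the lone library of its group assumed to vary like the others. The share of cells in S or G2M was 87.0 to 100% at PT D1, 96.6 to 100% at PT D7 and 100% in uninjured mice, and at PT D7 it was 100% in type C cells and 91.7% in activated type B cells.

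With the replicate block the counts were 14, 2 and 5, all of them genes also called without it, and no other count moved by over 1.5 times. Deviations of libraries with the same number correlated at -0.01, -0.06 and -0.03 across genes, so the libraries share only a number. The libraries held 37600 to 229515 UMIs, and 1 PT D7 library held 6 cells. What could be called at these sizes was simulated only for PT D1 against uninjured mice, so the limits of the comparisons were not compared.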

Other observations

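Genes of lipid synthesis, the pathway with which Thrsp is associated, did not share its pattern. Of 21 measured genes 7 were higher in activated type B and type C cells than in quiescent type B cells (median log2 ratio -0.43) and 11 favoured activated type B over type C cells (median 0.06). Fasn, fatty acid synthase, had 129, 81.7, 91.1 and 43.5 CPM in quiescent type B, activated type B, type C cells and neuroblasts, and the desaturase gene Scd2 had 1470, 449, 400 and 426 CPM. Of the 14 lipid genes tested at PT D1 only Thrsp was called, and the median of the list was -0.10.

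The astroglial genes took a median of 4.76% of the UMIs per quiescent type B cell, 0.601% per activated type B cell, 0.239% per type C cell and 0.181% per neuroblast. Within it Gfap had 963, 64.9, 5.06 and 13 CPM and the glutamate transporter gene Slc1a3 1880, 401, 68.3 and 30.4 CPM, while Fabp7, a fatty acid binding protein gene of the stem and progenitor list, was highest in activated type B cells, with 259, 372, 78.4 and 10.9 CPM.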
